A study of Saccharomyces cerevisiae with 8 samples.

Results

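A set of 10 yeast genes is described here, the transcripts of the cytosolic Hsp70 machinery of Saccharomyces cerevisiae: the Hsp70 genes SSA1, SSA2, SSA3 and SSA4, the J-protein genes YDJ1 and SIS1, the nucleotide exchange factor genes SSE1, SSE2 and FES1, and the disaggregase gene HSP104. They were chosen by systematic name, with earlier results of these data known. All 10 were found on the array and tested, out of 6240 genes tested and 6576 systematic names. Genome-wide transcript levels had been measured in 3 strains, and all 3 lacked IRE1, the sensor that starts the unfolded protein response of the endoplasmic reticulum. In SSZ1OEΔire1Δscj1 (3 arrays), the strain also overexpressed SSZ1, an Hsp70-like gene, and had lost SCJ1, which encodes a J-protein of the endoplasmic reticulum lumen. In SSZ1OEΔire1 (2 arrays), SSZ1 was overexpressed and SCJ1 was intact. In Δire1 (3 arrays), the deletion of IRE1 stood alone by its label. No strain with intact IRE1 was among the samples analysed, and the labels name neither the promoter nor the vector of SSZ1 overexpression. Cells had been harvested in early log phase at 30 °C.

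Hsp70 proteins bind short hydrophobic stretches of unfolded proteins and hold or release them in a cycle driven by ATP. J-proteins bring substrates to Hsp70 and stimulate its ATP hydrolysis, exchange factors remove the ADP so that the substrate is let go, and Hsp104 works with Hsp70 and J-proteins to pull single chains out of aggregates. Many of these genes are under the heat shock factor Hsf1, whose activity is itself held down by Hsp70. Ssz1 is an Hsp70 of another kind: with the J-protein Zuo1 it forms the ribosome-associated complex that assists the ribosome-bound Hsp70s Ssb1 and Ssb2.

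A level below is the log2 of the background-subtracted signal of the gene's probe minus the 75th percentile of that array, so that 0 is the brightness of a probe at the 75th percentile. Levels of different genes come from different probes and are not set against each other. Each of the 10 genes had 1 probe, printed on 9 to 10 spots per array, and 100% of these spots were well above background on every array. The SD between spots of a probe was 0.0233 to 0.0965, with a median of 0.0468. Differences were tested with limma across all 6240 genes, and a gene is said to rise or fall only where the Benjamini-Hochberg adjusted p was under 0.05. The samples are called independent in the series' text, but whether each came from its own culture is not said there, and p-values therefore reflect sample-to-sample spread that could be technical.

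The overexpressed and deleted genes matched the labels. SSZ1 stood at 5.42, 5.19 and 5.51 in SSZ1OEΔire1Δscj1, at 5.61 and 6.07 in SSZ1OEΔire1, and at 3.06, 2.79 and 3.05 in Δire1. SCJ1 was not well above background on the SSZ1OEΔire1Δscj1 arrays, at least 317-fold lower than in Δire1, and IRE1 was not well above background on any array. The slide carried its arrays in rows. Row 1 held both SSZ1OEΔire1 arrays and Δire1 replicates 1 and 2. Row 2 held Δire1 replicate 3 and the 3 SSZ1OEΔire1Δscj1 arrays. With slide row as a block, SSZ1OEΔire1 is therefore set against Δire1 replicates 1 and 2, and SSZ1OEΔire1Δscj1 against Δire1 replicate 3 alone. The within-row values use these same contrasts, as does leaving out Δire1 replicate 3 for SSZ1OEΔire1, and they are not separate checks. They also rest on fewer arrays than the reported values. The SSZ1OEΔire1Δscj1 arrays were brighter, with a 75th percentile of 9041 to 10016 intensity units against 5038 to 7152 on the other 5 arrays, and brightness and this genotype cannot be told apart. The median difference of all genes was 0.03, 0.02 and −0.0047 in the comparisons SSZ1OEΔire1 with Δire1, SSZ1OEΔire1Δscj1 with Δire1, and SSZ1OEΔire1Δscj1 with SSZ1OEΔire1. Scaling on the spike-in control probes instead moved these medians to 0.13, 0.43 and 0.31, so that directions in the comparisons with SSZ1OEΔire1Δscj1 are relative to the bulk of genes.

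SSA1 was the gene of the 10 with the largest change, and it was higher in both overexpressing strains than in Δire1. SSA1 (YAL005C) and SSA2 encode nearly identical Hsp70s present in unstressed cells, which hold the bulk of cytosolic Hsp70 activity. SSA1 stood at 1.20, 0.67 and 0.36 in SSZ1OEΔire1Δscj1, at 1.09 and 1.82 in SSZ1OEΔire1, and at 0.04, −0.17 and −0.31 in Δire1. Every array of both overexpressing strains lay above every Δire1 array, and the overexpressing strains overlapped each other. SSA1 rose 3.05-fold in SSZ1OEΔire1 against Δire1 (log2 difference 1.61, SE 0.28, limma adjusted p = 0.0151). It rose 1.86-fold in SSZ1OEΔire1Δscj1 against Δire1 (0.89, SE 0.25, limma adjusted p = 0.0286). Between SSZ1OEΔire1Δscj1 and SSZ1OEΔire1 the difference was −0.71 (SE 0.28, 95% interval −1.38 to −0.05, limma adjusted p = 0.133) and did not pass.

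Both SSA1 calls sat close to the threshold. In SSZ1OEΔire1 against Δire1, the difference was 1.52 within slide row 1 (limma adjusted p = 0.0792) and without Δire1 replicate 3 (limma adjusted p = 0.0529). Both settings compare the same arrays of these strains. Without SSZ1OEΔire1 replicate 2, which leaves 1 array of SSZ1OEΔire1, it was 1.24. In the comparison of SSZ1OEΔire1Δscj1 with Δire1, it was 1.06 within slide row 2, against Δire1 replicate 3 alone. It was 0.66 (limma adjusted p = 0.0788) without SSZ1OEΔire1Δscj1 replicate 1. Leaving out SSZ1OEΔire1Δscj1 replicate 2, Δire1 replicate 2 or Δire1 replicate 3 gave 0.93, 0.88 and 0.81. Their adjusted p-values from limma were 0.0595, 0.0554 and 0.0881. The SSA1 difference was positive in all of these.

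**Figure D1:**
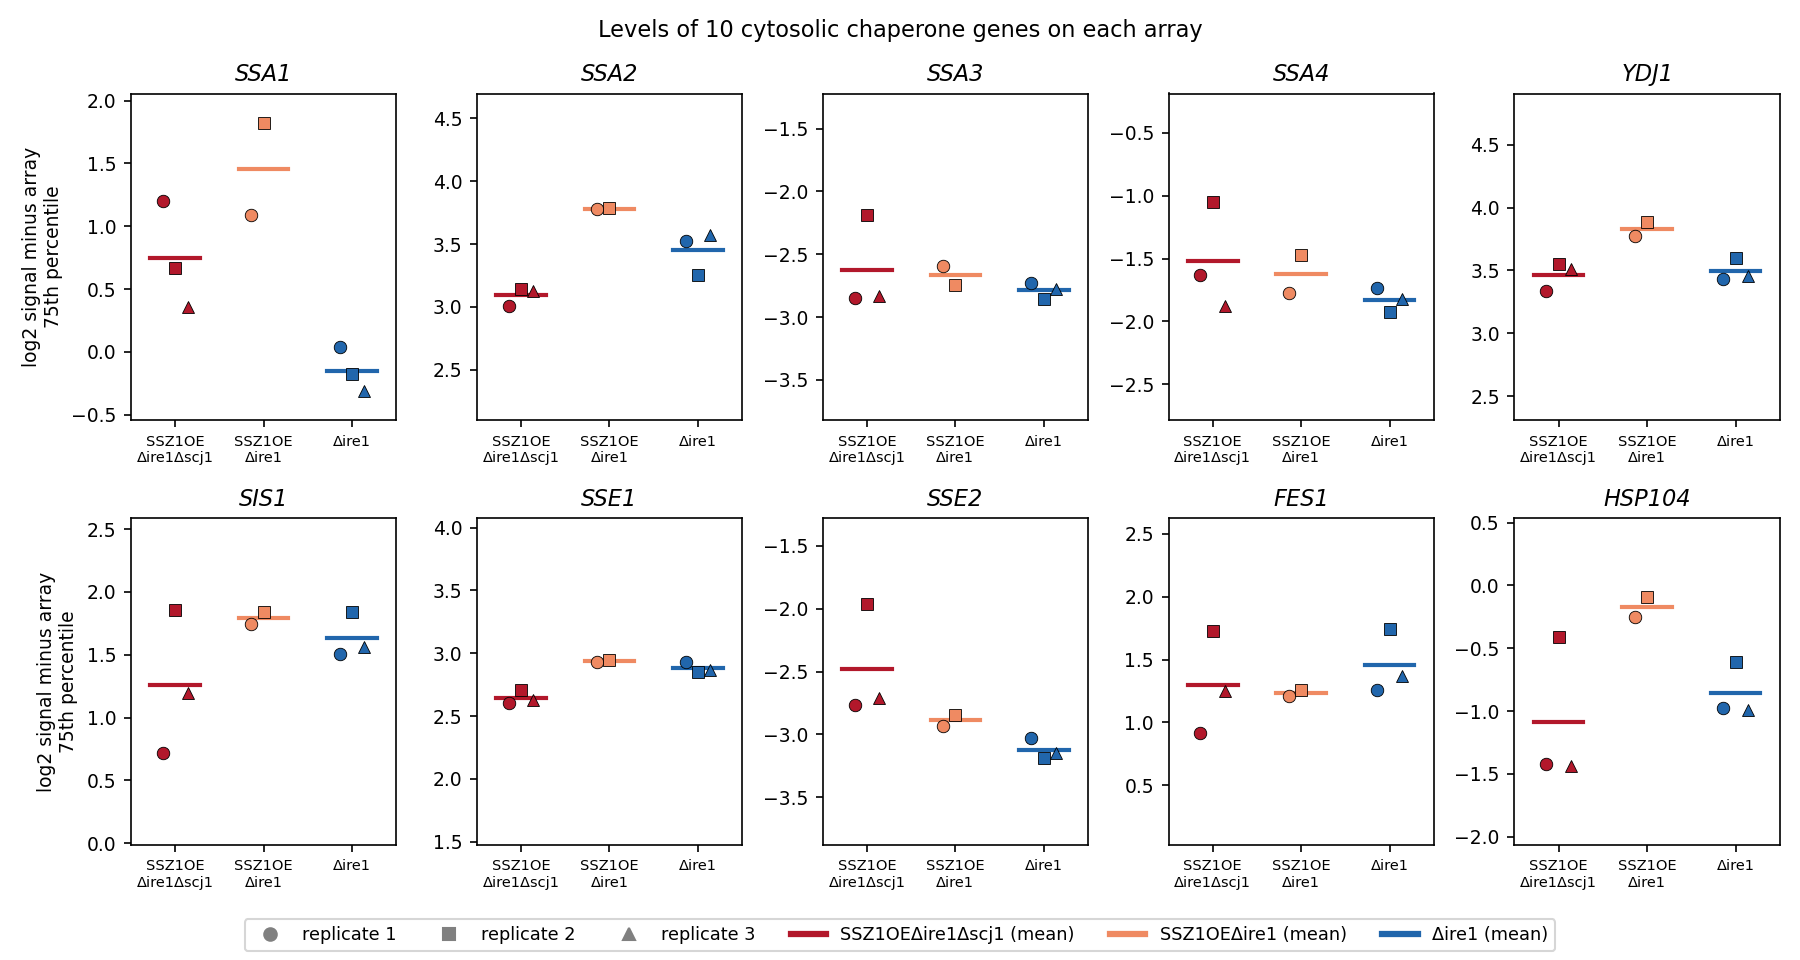
Level of each gene on each of the 8 arrays (vertical axis, log2 signal minus the array's 75th percentile), by genotype, with the replicate shown by the point's shape and the group mean as a line. All panels span the same number of log2 units, and SSA1 lies above all Δire1 arrays in both overexpressing strains. For HSP104, SIS1, SSE2, SSA3, SSA4 and FES1, SSZ1OEΔire1Δscj1 replicate 2 lies over 0.5 above the mean of replicates 1 and 3 of that strain. For YDJ1, SSE1 and SSA2 it lies above both by less.

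SSA2 moved in another way than SSA1. SSA2 (YLL024C) stood at 3.01, 3.14 and 3.13 in SSZ1OEΔire1Δscj1, at 3.78 and 3.79 in SSZ1OEΔire1, and at 3.53, 3.26 and 3.57 in Δire1. The 3 strains did not overlap, with SSZ1OEΔire1Δscj1 the lowest and SSZ1OEΔire1 the highest. SSA2 fell in SSZ1OEΔire1Δscj1 against SSZ1OEΔire1 (log2 difference −0.69, SE 0.11, limma adjusted p = 0.0144). It also fell in SSZ1OEΔire1Δscj1 against Δire1 (−0.36, SE 0.10, limma adjusted p = 0.0236), a direction that turned to 0.06 when arrays were scaled on the spike-in probes, where the median of all genes was 0.43. The difference between SSZ1OEΔire1 and Δire1, 0.33 (SE 0.11, 95% interval 0.08 to 0.58, limma adjusted p = 0.092), did not pass. Both overexpressing strains lie in 1 slide row each, so for SSA2 in SSZ1OEΔire1Δscj1 against SSZ1OEΔire1 row and genotype are joined only through Δire1, and with the row as a block the difference was −0.87 (limma adjusted p = 0.187). Within slide row 2, against Δire1 replicate 3 alone, the SSA2 difference was −0.48. Against Δire1, without Δire1 replicate 1, Δire1 replicate 3 or SSZ1OEΔire1Δscj1 replicate 1, it was −0.32, −0.30 and −0.31. The adjusted p-values from limma were then 0.0786, 0.0877 and 0.0828. Against SSZ1OEΔire1, leaving out SSZ1OEΔire1 replicate 1, SSZ1OEΔire1 replicate 2 or SSZ1OEΔire1Δscj1 replicate 1 gave SSA2 differences of −0.70, −0.68 and −0.64, with adjusted p-values of 0.123, 0.059 and 0.0567 from limma. SSA1 and SSA2 are close paralogs, and how far the probe of one also binds the cRNA of the other was not tested; their levels had a correlation of 0.221 over the 8 arrays.

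The stress-inducible Hsp70 genes SSA3 and SSA4 did not pass in any comparison. Both encode Hsp70s of the Ssa family that are made mainly after heat shock or in late growth. SSA3 (YBL075C) stood at −2.84, −2.19 and −2.84 in SSZ1OEΔire1Δscj1, at −2.60 and −2.74 in SSZ1OEΔire1, and at −2.73, −2.86 and −2.77 in Δire1. SSA4 (YER103W) stood at −1.63, −1.05 and −1.88 in SSZ1OEΔire1Δscj1, at −1.77 and −1.47 in SSZ1OEΔire1, and at −1.73, −1.93 and −1.82 in Δire1. For both genes the groups overlapped in every pair, and SSZ1OEΔire1Δscj1 replicate 2 was the highest of the 8 arrays. The SSA3 differences were 0.12 in SSZ1OEΔire1 against Δire1 (SE 0.19, 95% interval −0.34 to 0.57, limma adjusted p = 0.738) and 0.16 in SSZ1OEΔire1Δscj1 against Δire1 (SE 0.17, −0.24 to 0.57, limma adjusted p = 0.485). The SSA4 differences were 0.21 in SSZ1OEΔire1 against Δire1 (SE 0.23, 95% interval −0.32 to 0.73, limma adjusted p = 0.594) and 0.31 in SSZ1OEΔire1Δscj1 against Δire1 (SE 0.20, −0.17 to 0.78, limma adjusted p = 0.266). Between SSZ1OEΔire1Δscj1 and SSZ1OEΔire1 the differences were 0.05 for SSA3 and 0.10 for SSA4, with SEs of 0.19 and 0.23. Scaling on spike-in probes gave SSA4 a difference of 0.72 in SSZ1OEΔire1Δscj1 against Δire1 (limma adjusted p = 0.0488), or 0.29 above the median of all genes on that scaling.

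YDJ1 and SIS1 encode the main J-proteins of the cytosol. Ydj1 is farnesylated, works partly at membranes and takes part in the delivery of precursors to mitochondria and the endoplasmic reticulum. YDJ1 (YNL064C) stood at 3.33, 3.55 and 3.51 in SSZ1OEΔire1Δscj1, at 3.78 and 3.88 in SSZ1OEΔire1, and at 3.44, 3.60 and 3.45 in Δire1. Both SSZ1OEΔire1 arrays lay above the 6 others, and the arrays of SSZ1OEΔire1Δscj1 and Δire1 overlapped. YDJ1 fell in SSZ1OEΔire1Δscj1 against SSZ1OEΔire1 (−0.36, SE 0.10, limma adjusted p = 0.0494). In SSZ1OEΔire1 against Δire1 it differed by 0.33 (SE 0.10, 95% interval 0.11 to 0.56, limma adjusted p = 0.0646), which did not pass with all arrays and did without Δire1 replicate 2 (0.38, limma adjusted p = 0.0284). The YDJ1 difference between SSZ1OEΔire1Δscj1 and Δire1 was −0.03 (SE 0.09, 95% interval −0.23 to 0.17, limma adjusted p = 0.8).

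The YDJ1 call in SSZ1OEΔire1Δscj1 against SSZ1OEΔire1 did not hold in most other settings. The difference was −0.30 with slide row as a block (limma adjusted p = 0.43), −0.13 with quantile normalization (limma adjusted p = 0.515) and −0.05 with spike-in scaling (limma adjusted p = 0.899), and leaving out single arrays gave −0.42 to −0.30, which passed only without Δire1 replicate 2 among these 8.

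Sis1 is essential, guides misfolded proteins and prion aggregates to Hsp70 and Hsp104, and helps Hsp70 to hold down Hsf1. SIS1 (YNL007C) stood at 0.72, 1.86 and 1.20 in SSZ1OEΔire1Δscj1, at 1.75 and 1.84 in SSZ1OEΔire1, and at 1.50, 1.84 and 1.56 in Δire1. The SSZ1OEΔire1Δscj1 arrays spanned the range of all 8 arrays, with replicates 1 and 3 below every other array and replicate 2 at the top. No SIS1 difference passed with all arrays: it was 0.16 in SSZ1OEΔire1 against Δire1 (SE 0.29, limma adjusted p = 0.764), −0.38 in SSZ1OEΔire1Δscj1 against Δire1 (SE 0.26, limma adjusted p = 0.282) and −0.53 in SSZ1OEΔire1Δscj1 against SSZ1OEΔire1 (SE 0.29, limma adjusted p = 0.244). Without SSZ1OEΔire1Δscj1 replicate 2, SIS1 was lower by the test in SSZ1OEΔire1Δscj1 than in Δire1 (−0.68, limma adjusted p = 0.027). It passed in this 1 alone of the 8 settings that left out 1 array. With spike-in scaling over all arrays the SIS1 difference between SSZ1OEΔire1Δscj1 and Δire1 turned to 0.04.

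SSE1 and SSE2 encode exchange factors of the Hsp110 family. Sse1 is the abundant form and Sse2 the stress-inducible one, and both release ADP from Ssa and Ssb proteins. SSE1 (YPL106C) stood at 2.61, 2.70 and 2.63 in SSZ1OEΔire1Δscj1, at 2.93 and 2.95 in SSZ1OEΔire1, and at 2.93, 2.85 and 2.87 in Δire1. All SSZ1OEΔire1Δscj1 arrays lay below the 5 others. SSE1 fell in SSZ1OEΔire1Δscj1 against Δire1 (−0.24, SE 0.06, limma adjusted p = 0.0224), a direction that turned to 0.05 with quantile normalization and to 0.18 with spike-in scaling. It fell in SSZ1OEΔire1Δscj1 against SSZ1OEΔire1 (−0.29, SE 0.07, limma adjusted p = 0.0407), which was −0.05 with quantile normalization and turned to 0.02 with spike-in scaling. In SSZ1OEΔire1 against Δire1 the SSE1 difference was 0.05 (SE 0.07, 95% interval −0.11 to 0.22, limma adjusted p = 0.657).

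SSE2 (YBR169C) stood at −2.76, −1.97 and −2.71 in SSZ1OEΔire1Δscj1, at −2.93 and −2.85 in SSZ1OEΔire1, and at −3.03, −3.19 and −3.15 in Δire1. Each strain lay apart from the others in that order, and replicate 2 of SSZ1OEΔire1Δscj1 was the highest array. SSE2 rose 1.56-fold in SSZ1OEΔire1Δscj1 against Δire1 (0.64, SE 0.20, limma adjusted p = 0.0389), and without SSZ1OEΔire1Δscj1 replicate 2 the difference was 0.38 (limma adjusted p = 0.0193). The SSE2 differences of 0.41 in SSZ1OEΔire1Δscj1 against SSZ1OEΔire1 (SE 0.22, limma adjusted p = 0.248) and of 0.23 in SSZ1OEΔire1 against Δire1 (SE 0.22, limma adjusted p = 0.534) did not pass.

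Within slide row 2, SSE1 differed by −0.22 and SSE2 by 0.67 in SSZ1OEΔire1Δscj1 against Δire1 replicate 3 alone. Leaving out single arrays gave SSE1 differences of −0.26 to −0.21 with limma adjusted p-values of 0.0133 to 0.0821, and the call was lost without Δire1 replicate 1 or 3 or SSZ1OEΔire1Δscj1 replicate 1 or 3. The SSE2 differences were then 0.38 to 0.78 with limma adjusted p-values of 0.0193 to 0.0994, and the call was lost without any 1 Δire1 array or any 1 SSZ1OEΔire1 array. The SSE1 call against SSZ1OEΔire1 was kept only without Δire1 replicate 2 among these 8 (−0.29, limma adjusted p = 0.0205), and its differences lay between −0.32 and −0.27.

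FES1, which encodes an exchange factor of a structurally unrelated family, did not pass in any comparison. Fes1 takes misfolded proteins off Hsp70 for degradation. FES1 (YBR101C) stood at 0.91, 1.72 and 1.25 in SSZ1OEΔire1Δscj1, at 1.21 and 1.26 in SSZ1OEΔire1, and at 1.26, 1.74 and 1.37 in Δire1. Replicate 2 was the highest array of both SSZ1OEΔire1Δscj1 and Δire1, and the SSZ1OEΔire1 arrays lay just under those of Δire1. The FES1 differences were −0.22 in SSZ1OEΔire1 against Δire1 (SE 0.23, limma adjusted p = 0.579), −0.16 in SSZ1OEΔire1Δscj1 against Δire1 (SE 0.21, limma adjusted p = 0.572) and 0.06 in SSZ1OEΔire1Δscj1 against SSZ1OEΔire1 (SE 0.23, limma adjusted p = 0.886).

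HSP104 encodes the ring-shaped disaggregase that gives yeast its tolerance to severe heat. HSP104 (YLL026W) stood at −1.42, −0.41 and −1.44 in SSZ1OEΔire1Δscj1, at −0.25 and −0.09 in SSZ1OEΔire1, and at −0.97, −0.61 and −0.99 in Δire1. Both SSZ1OEΔire1 arrays lay above the 6 others, and replicates 1 and 3 of SSZ1OEΔire1Δscj1 lay below all others. No HSP104 difference passed with all arrays. It was 0.69 in SSZ1OEΔire1 against Δire1 (SE 0.30, 95% interval −0.02 to 1.40, limma adjusted p = 0.185), −0.92 in SSZ1OEΔire1Δscj1 against SSZ1OEΔire1 (SE 0.30, −1.63 to −0.21, limma adjusted p = 0.0856) and −0.23 in SSZ1OEΔire1Δscj1 against Δire1 (SE 0.27, −0.87 to 0.40, limma adjusted p = 0.529).

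Leaving out SSZ1OEΔire1Δscj1 replicate 2 brought HSP104 past the threshold in all 3 comparisons. Of the 8 settings that left out 1 array, HSP104 passed in this 1 alone in each comparison. The difference was then 0.69 in SSZ1OEΔire1 against Δire1 (limma adjusted p = 0.0256), where that array enters only through the shared spread. It was −1.26 in SSZ1OEΔire1Δscj1 against SSZ1OEΔire1 (limma adjusted p = 0.0213) and −0.57 in SSZ1OEΔire1Δscj1 against Δire1 (limma adjusted p = 0.0237). The HSP104 difference between SSZ1OEΔire1Δscj1 and Δire1 turned to 0.19 with spike-in scaling over all arrays.

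**Figure D2:**
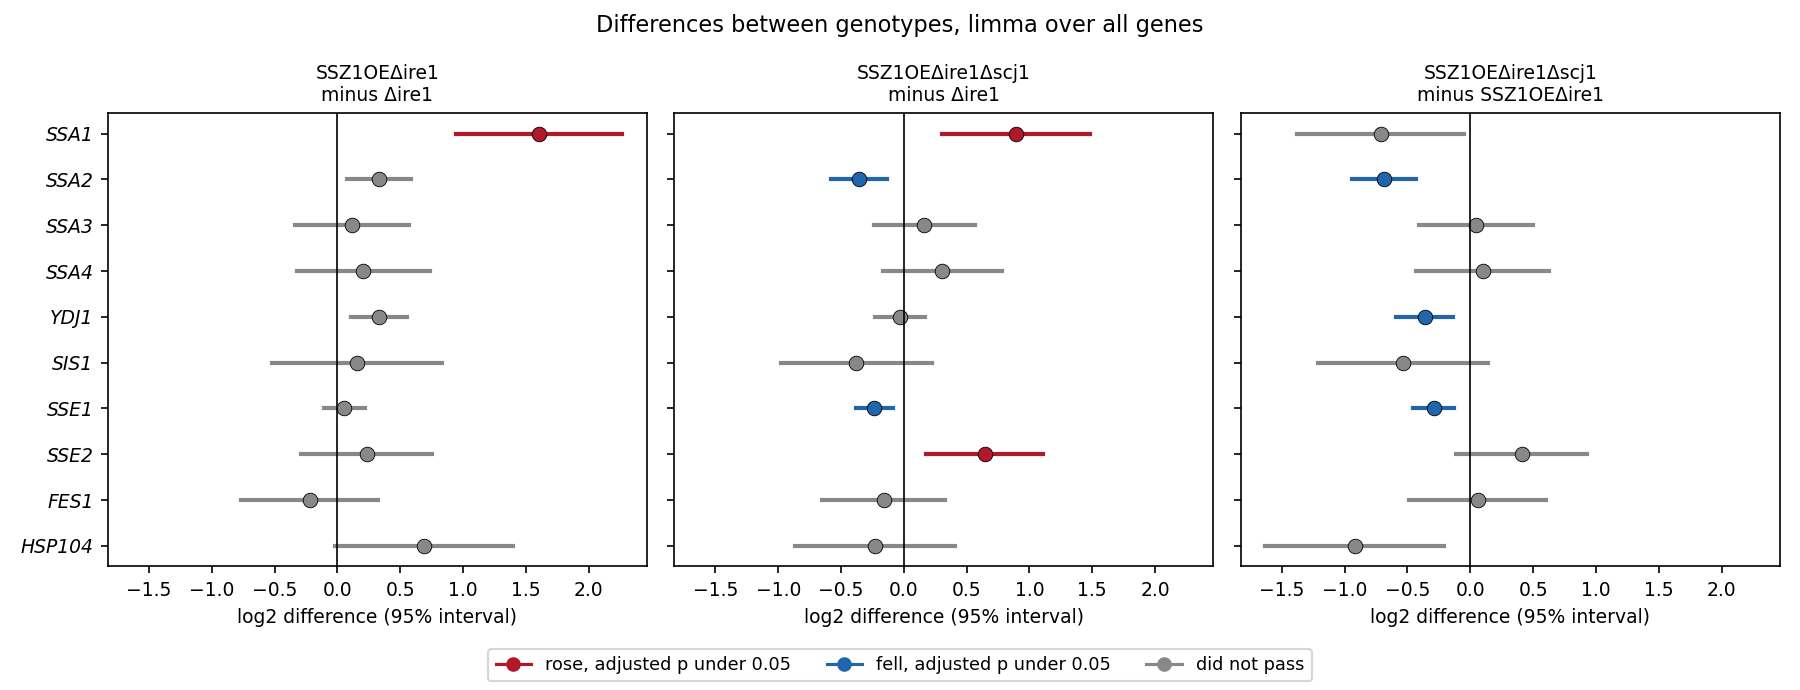
Log2 difference of each gene in the 3 comparisons (horizontal axis) with its unadjusted 95% interval from limma, coloured where the adjusted p was under 0.05. SSA1 lies to the right of 0 against Δire1 in both overexpressing strains, and SSA2 and SSE1 lie to the left of 0 in both comparisons of SSZ1OEΔire1Δscj1, which with spike-in scaling they kept only for SSA2 against SSZ1OEΔire1.

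In SSZ1OEΔire1 against Δire1, the comparison of SSZ1 overexpression, 1 of the 10 genes rose, SSA1, and 0 fell, beside 11.4% of all genes tested called in either direction, 7.52% higher and 3.91% lower. Of the 10 genes, 9 had a positive difference, and the exception was FES1. Their median difference was 0.22, beside 0.03 for all genes. For 7 of the 10 genes the array values of the strains were fully separated, as they were for 46.4% of all genes tested. An unadjusted p under 0.05 was reached by 3 of the 10, namely SSA1, SSA2 and YDJ1, and by 1786 of all 6240 genes. The brightest quintile of all genes held 6 of the 10, and its median difference was −0.05.

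In SSZ1OEΔire1Δscj1 against Δire1, which joins the overexpression with the loss of SCJ1, 2 of the 10 genes rose (SSA1 and SSE2) and 2 fell (SSA2 and SSE1, both of which turned positive with spike-in scaling), where 21.4% of all genes tested were called higher and 16.9% lower, 38.3% in all. With spike-in scaling 3 rose (SSA1, SSA4 and SSE2) and 0 fell, beside 2023 higher and 43 lower of all 6240 genes on that scaling. The median difference of the 10 genes was −0.10, beside 0.02 for all genes, and 4 of the 10 had groups that did not overlap, against 50.6% of all genes. The brightest quintile of genes, which holds SSA1, SSA2, YDJ1, SIS1, SSE1 and FES1, had a median difference of −0.19.

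In SSZ1OEΔire1Δscj1 against SSZ1OEΔire1, the comparison of SCJ1 loss in the presence of overexpressed SSZ1, 0 of the 10 genes rose and 3 fell (SSA2, YDJ1 and SSE1). Beside these, 11.9% of all genes were called, 6.30% higher and 5.61% lower. SSZ1 itself differed by −0.47 here (SE 0.16, limma adjusted p = 0.0998) and did not pass, though its arrays did not overlap. The part of the SSZ1 level in these values was not tested. The median difference of the 10 was −0.33, against −0.0047 for all genes and −0.14 for the brightest quintile of genes. The groups did not overlap for 5 of the 10, and for 59.0% of all genes. With spike-in scaling 0 of the 10 passed, beside 161 of all 6240 genes, and SSE1 turned to 0.02. All SSZ1OEΔire1 arrays were in slide row 1 and all SSZ1OEΔire1Δscj1 arrays in row 2, so no within-row value exists here. The 3 comparisons share arrays in pairs, so their results are not independent of each other.

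**Figure D3:**
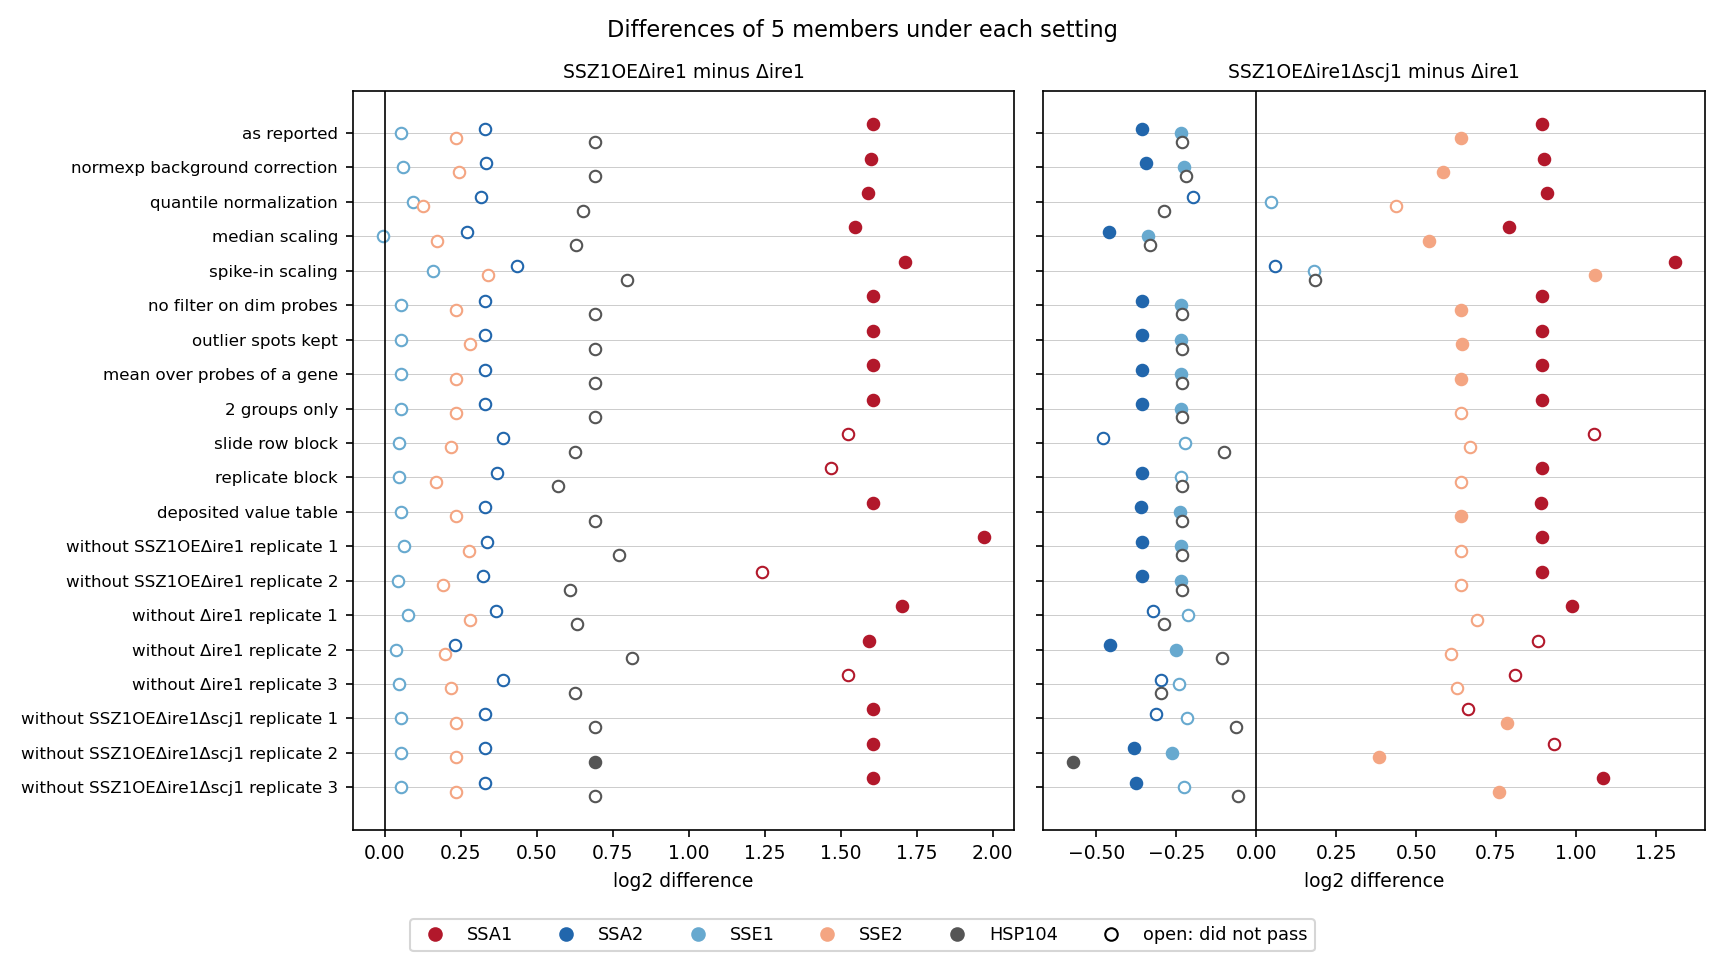
Log2 difference of SSA1, SSA2, SSE1, SSE2 and HSP104 (horizontal axis) as reported and under each other setting (vertical axis), filled where the adjusted p was under 0.05. The within-row settings are not drawn. In SSZ1OEΔire1 minus Δire1 SSA1 stays between 1.24 and 1.97, and in SSZ1OEΔire1Δscj1 minus Δire1 SSA2, SSE1 and HSP104 cross 0 with spike-in scaling.

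Replicate 2 of SSZ1OEΔire1Δscj1 stood apart from replicates 1 and 3 for most of these genes. Against the mean of the other replicates of its strain it was higher by 1.02 for HSP104, 0.90 for SIS1, 0.77 for SSE2, 0.71 for SSA4, 0.65 for SSA3 and 0.64 for FES1. For YDJ1, SSE1 and SSA2 it was higher by 0.12, 0.09 and 0.08, and for SSA1 the value was −0.11. In all, 6 of the 10 genes exceeded 0.5, a limit chosen after the values were seen, beside 5.38% of all genes tested. The median absolute difference between replicates 1 and 3 was 0.15 over the 10 genes and 0.10 over all genes. Between replicates 1 and 2 it was 0.62 over the 10 genes and 0.13 over all genes.

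By the same measure, many stress genes outside the 10 were higher on that array too. Of 12 other Hsf1-dependent chaperone genes, 7 exceeded 0.5 there, with a median of 0.74, led by BTN2 (1.73), an aggregate-sorting factor gene, and HSP42 (1.55), a small heat shock protein gene. Of 15 general stress genes under Msn2 and Msn4, 12 exceeded it, with a median of 0.97, led by HSP26 (2.56), a small heat shock protein gene, and DDR2 (2.39). A low replicate 3 adds to such values: replicates 1, 2 and 3 stood at −1.82, 0.17 and −2.94 for HSP26 and at −1.85, −0.11 and −3.14 for DDR2. HSP12 was counted at 1.65 although replicate 2 was not above replicate 1, with levels of 0.23, 0.23 and −3.08. Of 7 laboratory marker genes, 3 exceeded 0.5, HIS3 (1.60), MET17 (0.67) and ADE2 (0.52). Of 11 other J-protein genes 1 did, APJ1, which is also among the 12, and of 9 further Hsp70s and Hsp70 partners 0 did, while the median of all genes was 0.01. The part of these stress genes in the values of the 10 genes was not tested. In Δire1, replicate 2 exceeded its fellows by more than 0.5 for 0 of the 10 genes, beside 9.87% of all genes, with 0.43 for FES1, 0.37 for HSP104, 0.31 for SIS1 and −0.29 for SSA2. Of the 12 other Hsf1-dependent genes, 4 exceeded 0.5 on that Δire1 array, BTN2 (1.03), CUR1 (0.93), HSP82 (0.57) and APJ1 (0.56), and of the 15 general stress genes 1 did.

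**Figure D4:**
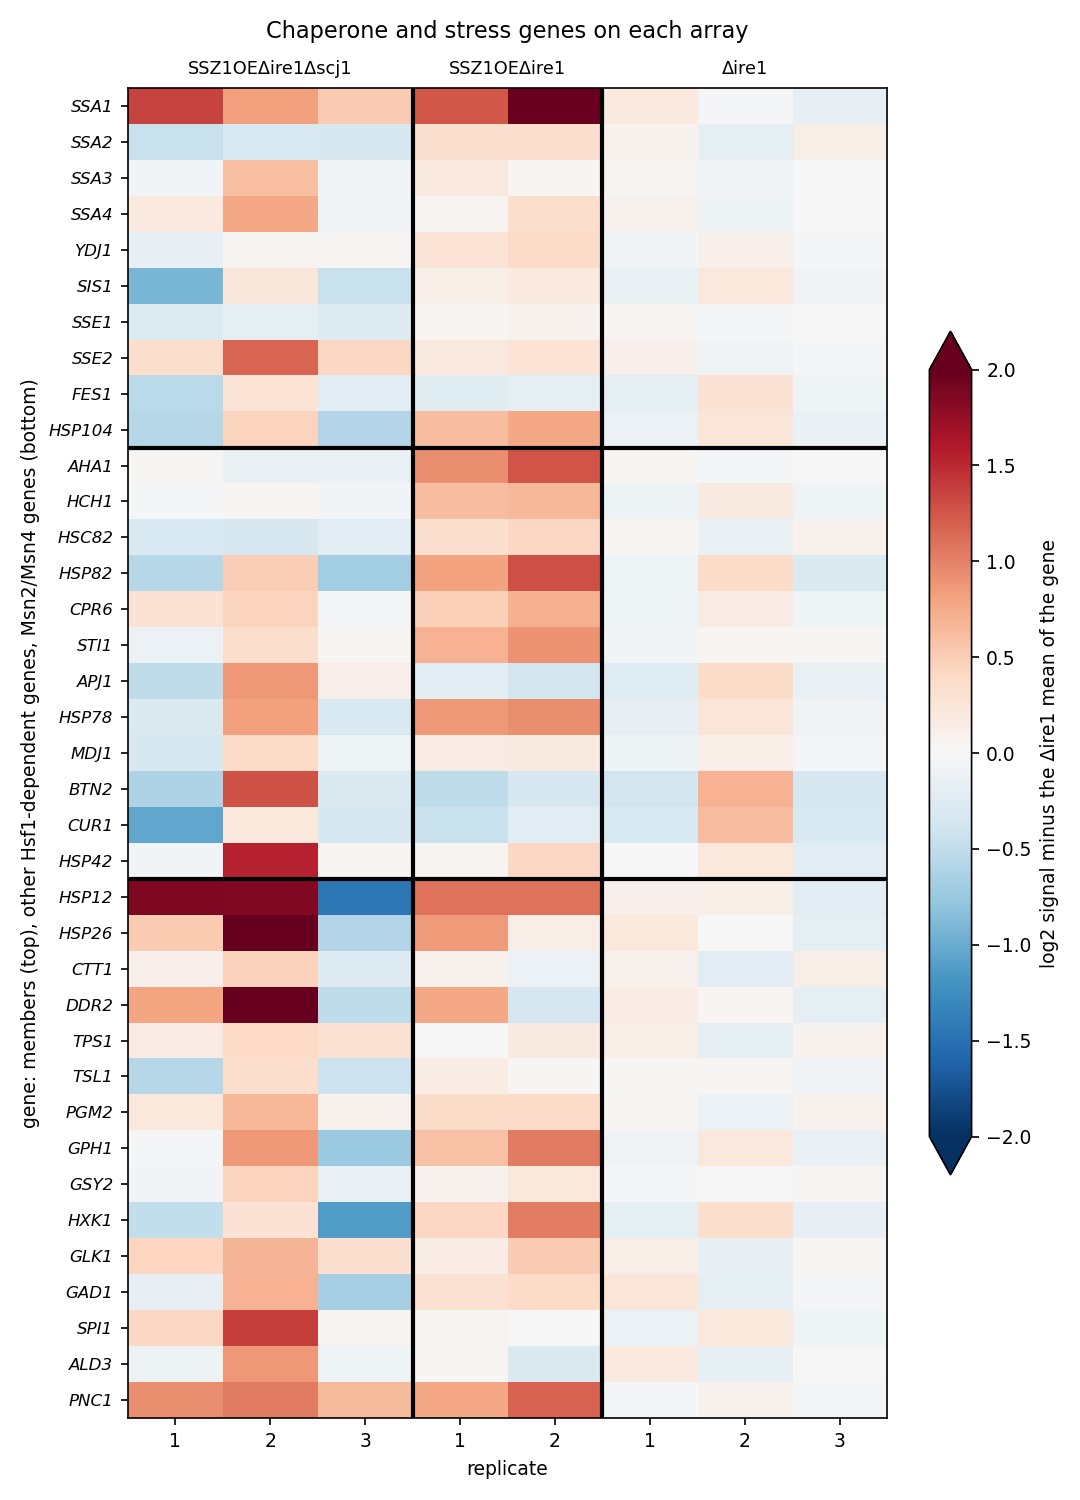
Log2 level of each gene (vertical axis, 3 blocks) on each array (horizontal axis) minus the gene's Δire1 mean, red where higher and blue where lower, with colours ending at 2 log2 units. In 6 of the 10 genes of the top block, replicate 2 of SSZ1OEΔire1Δscj1 lies over 0.5 above the mean of replicates 1 and 3. That limit was chosen after the values were seen. In much of both lower blocks this replicate is also redder than replicates 1 and 3. AHA1, HCH1, HSC82 and STI1 are red on the SSZ1OEΔire1 arrays, as are HSP82, HSP78, CPR6, HSP12, PNC1 and GPH1.

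Over the 8 arrays the 10 genes fell into patterns that are given as a description, since the arrays share strains. SSZ1OEΔire1Δscj1 replicate 2 also stood apart for SSA3, SSA4, SSE2, SIS1, HSP104 and FES1, though not for SSA2, SSE1, YDJ1 or SSA1. SSA3, SSA4 and SSE2, named above as stress-inducible, had correlations of 0.842 (SSA3 with SSA4), 0.869 (SSA4 with SSE2) and 0.82 (SSA3 with SSE2). HSP104 had correlations of 0.863 with SIS1 and 0.856 with YDJ1, and of 0.494, 0.417 and 0.131 with SSA3, SSA4 and SSE2. SSA2 and SSE1, the abundant forms, had a correlation of 0.912. SSA1 had no correlation above 0.541 with another of the 10, and that one was with YDJ1. Among 6230 genes outside the 10, those most like SSA2 were BAS1 (0.98), DAT1 (0.98) and HSC82 (0.98), and those most like SSA1 were GCG1 (0.97), ETR1 (0.96) and ANP1 (0.96). Bas1 is a transcription factor of purine and histidine synthesis, and HSC82 encodes the constitutive Hsp90.

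Several other chaperone genes under Hsf1 were higher in SSZ1OEΔire1 than in the other strains. Of the 12 other Hsf1-dependent chaperone genes, 4 rose and 0 fell in SSZ1OEΔire1 against Δire1, where 7.52% of all genes tested were called higher. The median difference of the 12 was 0.48. Of these 12 genes, 1 rose there with spike-in scaling (AHA1), 3 with slide row as a block and 0 within slide row 1, where the median was again 0.48. In these settings 184, 183 and 60 of all 6240 genes were called higher. All 4 belong to the Hsp90 system: AHA1, an activator of Hsp90 (1.09, SE 0.11, limma adjusted p = 0.0033), STI1, which links Hsp70 with Hsp90 (0.80, SE 0.14, limma adjusted p = 0.0134), HCH1, a relative of AHA1 (0.64, SE 0.10, limma adjusted p = 0.011), and HSC82 (0.36, SE 0.09, limma adjusted p = 0.0446). Leaving out 1 array at a time, AHA1 passed in 8 of 8 settings, STI1 in 7, HCH1 in 6 and HSC82 in 1. AHA1 stood at 0.29, 0.15 and 0.14 in SSZ1OEΔire1Δscj1, at 1.21 and 1.53 in SSZ1OEΔire1, and at 0.31, 0.24 and 0.28 in Δire1. In SSZ1OEΔire1Δscj1 against SSZ1OEΔire1, where 5.61% of all genes were called lower, 0 of the 12 rose and 4 fell. These were AHA1 (−1.18), STI1 (−0.71), HCH1 (−0.66) and HSC82 (−0.65), and the median difference of the 12 was −0.50. None of these calls held with spike-in scaling or with slide row as a block, where 0 of the 12 passed and the median differences were −0.19 and −0.39. Of all 6240 genes, 161 and 2 passed in these settings. These values share the SSZ1OEΔire1 arrays with the rises above, and with 1 array left out AHA1 passed in 8 of 8 settings, HSC82 in 6, and STI1 and HCH1 in 5 each. In SSZ1OEΔire1Δscj1 against Δire1, 0 rose and 1 fell, HSC82 (−0.28, limma adjusted p = 0.0292), which turned to 0.11 with quantile normalization and 0.13 with spike-in scaling, and the median difference was 0.03. HSP82, the inducible Hsp90 gene, differed by 1.05 in SSZ1OEΔire1 against Δire1 (SE 0.37, limma adjusted p = 0.113) and did not pass. CPR6, also of the Hsp90 system, differed by 0.60 there (limma adjusted p = 0.051) and did not pass, so the list of 12 is rich in that system. HSP78, outside that system, differed by 0.90 (limma adjusted p = 0.12) and did not pass. The negative differences among the 12 were those of APJ1 (−0.30), CUR1 (−0.33) and BTN2 (−0.42).

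The counts in the next lists stand beside these shares of all genes tested. In SSZ1OEΔire1 against Δire1, 7.52% were called higher and 3.91% lower. In SSZ1OEΔire1Δscj1, 21.4% were called higher and 16.9% lower against Δire1, and 6.30% and 5.61% against SSZ1OEΔire1. Among 11 other J-protein genes of the cytosol and nucleus, 1 rose in SSZ1OEΔire1 against Δire1, ZUO1 (0.51, SE 0.09, limma adjusted p = 0.0146). Its product is the partner of Ssz1 on the ribosome. ZUO1 also was the 1 gene of these 11 to fall in SSZ1OEΔire1Δscj1 against SSZ1OEΔire1 (−0.41, limma adjusted p = 0.0311), and 0 of the 11 passed in SSZ1OEΔire1Δscj1 against Δire1, where limma gave 3 an unadjusted p under 0.05, as it did 3031 of all 6240 genes. The ZUO1 call against Δire1 was lost with spike-in scaling and within slide row 1, and the one against SSZ1OEΔire1 with spike-in scaling and with slide row as a block. Of 9 further Hsp70s and Hsp70 partners, 2 rose in SSZ1OEΔire1 against Δire1. These were SSZ1, the overexpressed gene itself, and STI1, already counted among the other Hsf1-dependent genes. In the same comparison 1 fell, CNS1, a co-chaperone gene of Hsp90 and Hsp70 (−0.28, limma adjusted p = 0.041). CNS1 passed in 1 of 8 settings with an array left out. It passed in 0 of 3 with spike-in scaling, slide row as a block or within slide row 1. Against Δire1, SSZ1 and TAH1 (0.64) rose in SSZ1OEΔire1Δscj1. The ribosome-bound Hsp70 genes SSB1 (−0.63, limma adjusted p = 0.00908) and SSB2 (−0.53, limma adjusted p = 0.0188) fell there with CNS1 (−0.32), whose difference turned to 0.09 with spike-in scaling. With spike-in scaling SSB1 differed by −0.21 (limma adjusted p = 0.343) and SSB2 by −0.11 (limma adjusted p = 0.619), and neither passed, whereas with slide row as a block SSB1 passed and SSB2 did not. In SSZ1OEΔire1Δscj1 against SSZ1OEΔire1, SGT2 (−0.42) and STI1 fell and 0 rose, and 0 of the 9 passed there with spike-in scaling or the row block. With 1 array left out, ZUO1 passed in 6 of 8 settings in SSZ1OEΔire1 against Δire1 and in 3 of 8 in SSZ1OEΔire1Δscj1 against SSZ1OEΔire1. SSB1 passed in 8 of 8, SSB2 and TAH1 in 4 and SGT2 in 1.

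Of 15 general stress genes, 1 rose in SSZ1OEΔire1 against Δire1, PNC1, a nicotinamidase gene (0.97, SE 0.15, limma adjusted p = 0.0112). Of all genes, 7.52% were called higher there. In SSZ1OEΔire1Δscj1, 21.4% were called higher against Δire1 and 6.30% against SSZ1OEΔire1. These shares also stand beside the 8 regulators below. In SSZ1OEΔire1Δscj1 against Δire1, PNC1 (0.87, limma adjusted p = 0.00371) and the glucokinase gene GLK1 (0.47, limma adjusted p = 0.0308) rose and 0 fell. In SSZ1OEΔire1Δscj1 against SSZ1OEΔire1, 0 of 15 passed in either direction by limma, with 1 at an unadjusted p under 0.05, beside 1988 of all 6240 genes. The PNC1 call in SSZ1OEΔire1 was lost with spike-in scaling and within slide row 1. The GLK1 call was lost with slide row as a block, which sets SSZ1OEΔire1Δscj1 against Δire1 replicate 3 alone. Of 8 regulators, RPN4, the factor of proteasome genes and itself a target of Hsf1 and Pdr1, rose in SSZ1OEΔire1 (0.77, limma adjusted p = 0.0247) and in SSZ1OEΔire1Δscj1 (1.24, limma adjusted p = 0.00148) against Δire1. RIM15, a kinase gene upstream of Msn2 and Msn4, rose in SSZ1OEΔire1Δscj1 against Δire1 (0.50) and against SSZ1OEΔire1 (0.43). With spike-in scaling or slide row as a block, RPN4 did not pass in SSZ1OEΔire1 against Δire1, nor RIM15 in SSZ1OEΔire1Δscj1 against SSZ1OEΔire1. With 1 array left out, RPN4 passed in 4 of 8 settings in SSZ1OEΔire1 and in 8 of 8 in SSZ1OEΔire1Δscj1 against Δire1, GLK1 in 4, and RIM15 against SSZ1OEΔire1 in 2. HSF1 itself stood at −1.49, −1.39 and −1.52 in SSZ1OEΔire1Δscj1, at −1.56 and −1.50 in SSZ1OEΔire1, and at −1.34, −1.64 and −1.37 in Δire1, and it did not pass in any comparison.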

How the data were processed

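Per the labels' protocols, RNA was labelled with Cy3 and hybridised to one-colour Agilent arrays. The authors deposited spot intensity values made with version 10.7.1.1 of Agilent Feature Extraction, which the submitters' processing notes name. Background had been subtracted from the processed intensity and no scaling between arrays applied, per the file headers. The file of SSZ1OEΔire1Δscj1 replicate 3 holds values with 3 significant digits. A table of log2 values deposited by the authors matched these intensities (r = 1 per array) after the 75th percentile and each probe's median were subtracted, with column medians from −0.0344 to 0.0106, and served as an alternative. The array design follows sacCer1, and no positions are given. Symbols came from a RefSeq gene table, which matched 5903 of 6576 names. No probe, promoter or protein sequence was used here, so the planned motif search was not run.

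Spots were averaged per probe on the log2 scale without outlier spots, and the 75th percentile of the non-control probes of each array was subtracted. The brightest probe stood for a gene, and a gene was tested if over 0.5 of its spots were well above background on every array of at least 1 group. Limma 3.58.1 in R 4.3.3 (package data.table, version 1.17.8) fitted 3 group means to all 8 arrays with eBayes, two-sided, adjusted per comparison over 6240 genes by Benjamini-Hochberg at 0.05. Python 3.11.15 with pandas 2.3.3 and matplotlib 3.10.9 made summaries and plots. The steps were tested on simulated data.

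The text names all 10 genes, the targeted genes, of each list up to 4 called genes with the largest difference, and the 3 genes most correlated with each of the 2 genes of lowest adjusted p. HSP82, CPR6, HSP78, APJ1, CUR1, BTN2, HSF1, LEU2, HIS3, HSP12, AHA1 on each array and the genes given for replicate 2 were named after their values were seen. The genes and lists were chosen with earlier results of these data known. The number of arrays limits the precision. Replicate numbers are shared by the groups, and same-numbered arrays deviated together with correlations of −0.037 to 0.207, so they were not taken as pairs. Alternatives covered background correction, scaling, filters, probes, the arrays in the model, slide row, replicate block, the deposited table and leaving out each array. The within-row values were added after the data were seen.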

Additional observations from a re-analysis of the deposited data

How the results depend on the processing

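Of the differences of the 10 genes, 498 values under other settings kept direction and side of the threshold, 6 gained a call, 63 lost one and 23 changed sign. The 498 include differences that did not pass either way, and the 23 include lost calls. In SSZ1OEΔire1 against Δire1, SSA1 passed in 15 of 20 other settings. In SSZ1OEΔire1Δscj1 against Δire1, SSA1 passed in 14, SSA2 in 13, SSE1 in 11 and SSE2 in 10 of 20. Against SSZ1OEΔire1, SSA2 passed in 14, SSE1 in 7 and YDJ1 in 6 of 19. The cause of these changes was not tested.

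In SSZ1OEΔire1 against Δire1, 0 of the 10 genes passed with slide row as a block or within slide row 1, and 0 to 2 with 1 array left out. Over all genes the calls were 205 with spike-in scaling (184 higher, 21 lower), 384 with only the groups compared in the model, 252 with the row block, 75 within row 1, and 60 to 1507 with 1 array left out, against 713 as reported (469 higher, 244 lower). Quantile normalization split the calls into 339 higher and 376 lower, and median scaling into 371 and 347. SSE1 was −0.0058 with median scaling.

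For SSZ1OEΔire1Δscj1 against Δire1, 1 of the 10 passed with quantile normalization, 0 with the row block, and 0 to 5 with 1 array left out. The row block sets SSZ1OEΔire1Δscj1 against Δire1 replicate 3 alone. Over all genes the calls were 1065 with the row block, 1154 within row 2, and 1440 to 3165 with 1 array left out, against 2390 (1333 higher, 1057 lower). The split was 943 to 1381 with quantile normalization, 989 to 1573 with median scaling and 2023 to 43 with spike-in scaling. With spike-in scaling SSA2 was 0.058, YDJ1 0.39, SIS1 0.039, SSE1 0.18, FES1 0.26, HSP104 0.19, CNS1 0.095 and HSC82 0.13. With quantile normalization SSA3 was −0.024, YDJ1 0.21, SSE1 0.047 and HSC82 0.11. YDJ1 was 0.011 with the row block and within row 2, which are the same contrast. With 1 array left out SSA3 lay between −0.055 and 0.27, YDJ1 between −0.072 and 0.035, and FES1 between −0.37 and 0.031.

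In SSZ1OEΔire1Δscj1 against SSZ1OEΔire1, 1 of the 10 passed with quantile normalization, 0 with spike-in scaling, 1 with only the groups compared in the model, 0 with the row block, and 0 to 3 with 1 array left out. Over all genes the calls were 161 with spike-in scaling (150 higher, 11 lower), 2 with the row block, and 3 to 1528 with 1 array left out, against 743 (393 higher, 350 lower). Normexp background correction split the calls into 423 higher and 650 lower. SSA3 was −0.042 with quantile normalization, and SSE1 was 0.021 with spike-in scaling. With 1 array left out SSA3 lay between −0.17 and 0.16, SSA4 between −0.14 and 0.28, and FES1 between −0.16 and 0.25.

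The replicate block, used although the numbers do not pair the arrays, left 0, 2 and 1 of the 10 genes past the threshold in these comparisons in order, and 289, 2048 and 597 of all genes. With it, SSA1 was 1.47 in SSZ1OEΔire1 against Δire1 (limma adjusted p = 0.0525), and not every array correlated best with its own number.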

Other observations

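Mating-type and laboratory marker genes were examined as genes that could differ between strain backgrounds. Against Δire1, 6 of 7 a-cell genes fell in SSZ1OEΔire1Δscj1, among them MFA1 (−1.16), AGA2 (−0.78) and STE2 (−0.77), and 3 of 5 alpha-cell genes rose, STE3 (3.07), MF(ALPHA)1 (2.08) and AFB1 (1.05). Of all genes tested, 16.9% were called lower and 21.4% higher there. With spike-in scaling 0 of the 7 a-cell genes passed, with a median difference of −0.31 beside −0.72 as reported. On that scaling 3 of the 5 alpha-cell genes rose, beside 2023 higher and 43 lower of all 6240 genes. With slide row as a block 4 of the 7 fell and 3 of the 5 rose. In SSZ1OEΔire1Δscj1 against SSZ1OEΔire1, 4 of 7 a-cell genes fell and 3 of 5 alpha-cell genes rose, beside 5.61% of all genes called lower and 6.30% higher. With 1 array left out, STE2 and MF(ALPHA)1 passed there in 2 of 8 settings each. In SSZ1OEΔire1 against Δire1, STE3 rose (2.12), and 0 of 7 a-cell genes passed by limma, with 1 at an unadjusted p under 0.05, beside 1786 of all 6240 genes. Of 7 laboratory marker genes, 1 rose (TRP1, 0.53) and 3 fell (MET17, −1.33, LYS2, −1.08, and URA3, −0.94) in SSZ1OEΔire1Δscj1 against Δire1. TRP1, MET17 and LYS2 passed in 20 of 20 other settings and URA3 in 18. In SSZ1OEΔire1 against Δire1, and in SSZ1OEΔire1Δscj1 against SSZ1OEΔire1, 0 of the 7 passed. Whether these marker genes differ through strain background was not tested, nor was their part in the values of the Hsp70 machinery. LEU2 stood at 2.46, 2.12 and 2.22 in SSZ1OEΔire1Δscj1, at 2.43 and 2.42 in SSZ1OEΔire1, and at 0.48, −0.02 and 2.73 in Δire1, so Δire1 replicate 3 lay with the overexpressing strains. HIS3 stood at −3.65, −2.12 and −3.78 in SSZ1OEΔire1Δscj1, with replicate 2 above its fellows as for HSP104. HSP12, a general stress gene, stood at 0.23, 0.23 and −3.08 in SSZ1OEΔire1Δscj1, where replicate 3 was the low one.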
